A study of Mus musculus with 8 samples.

Results

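The 36 mitosis genes are genes of the G2 and M phases of the cell cycle, chosen by symbol: they are the rows of the deposited expression table whose symbol is on a list of regulators and structural proteins of cell division. All 36 were found among the 38026 genes of the table, and all 36 were among the 15262 genes tested. The series measured RNA by sequencing in mouse cells captured with magnetic beads against CD11b, an integrin of microglia, macrophages and other myeloid cells. It holds 5 libraries of tumor-associated microglia and macrophages (TAMs) from medulloblastoma, a tumor of the cerebellum, and 3 libraries of microglia from normal cerebral cortex. The study design set the expression profile of the TAMs against that of the normal microglia. All mice were C57BL/6. The TAM mice were 68, 90, 61, 66 and 62 days old (libraries TAM 1 to TAM 5) and the microglia mice were all 60 days old. The genotype of the tumor mice is not given in the sources used here. Tumor, brain region and age differ together between the groups, so their parts in any difference cannot be told apart. Nothing in the labels says that the libraries came from separate animals, so p-values measure the spread between these libraries.

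Cell division is driven by CDK1, a kinase switched on by cyclins A and B and by CDC25 phosphatases. Polo and Aurora kinases then build the spindle, kinetochores tie chromosomes to its microtubules, and the spindle checkpoint holds the anaphase-promoting complex (APC/C) back until every chromosome is attached. Most transcripts of this set are low in resting cells and peak in G2 and M, so they are commonly read as marks of dividing cells. Adult microglia in normal cortex are known to divide rarely.

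Mitotic transcripts were higher in TAMs than in cortical microglia across all 8 roles into which the set was divided. The summed level of the 36 genes was 396, 556, 505, 323 and 487 TPM (a length-normalised share of all transcripts of a library) in TAM 1 to TAM 5, and 100, 134 and 112 TPM in the 3 microglia libraries. Every TAM library lay above every microglia library. By limma on log2(TPM + 1), with Benjamini-Hochberg adjusted p under 0.05 over all 15262 genes, 35 of the 36 genes were higher in TAMs, against 8.22% of all genes tested. None was lower, against 56.4% of all genes tested. At an unadjusted p under 0.05 limma gave the same counts of members, while both shares of all genes belong to the adjusted threshold. The gene that passed in neither direction was Cenpf. The 35 genes were also those whose 5 TAM libraries all lay above the 3 microglia libraries, a separation met by 7.97% of all genes tested, while 49.7% of all genes had every TAM library below every microglia library. Their ratios of mean TPM ran from 1.56 (Incenp) to 11.2 (Bub1), 27 of the 36 ratios were at least 4, and the median ratio was 5.07.

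The median log2 fold change of the set was 1.73, beside -0.65 over all genes tested. TPM values share a fixed total, and a few abundant features (Gm15662, Mir6236 and Mir6240) filled 13.6% to 25.6% of it in each TAM library and 3.20% to 15.4% in each microglia library. The fit was therefore repeated on rescaled TPM, made by dividing each library by the median, over genes, of its ratio to the average of the 8 libraries. This moved the median of all genes to -0.02 and that of the set to 2.31. On that scale the same 35 genes were higher, against 25.2% of all genes higher and 24.1% lower, and the same 35 genes kept non-overlapping groups, against 24.5% of all genes. In the authors' deposited table, with their DESeq2 p-values adjusted here, the count was again 35 higher and 0 lower, against 17.6% and 16% of the genes given a p-value. In bulk RNA, more dividing cells and more of each transcript per cell cannot be told apart. Fold changes on the log2(value + 1) scale understate the change of low genes.

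**Figure D1:**
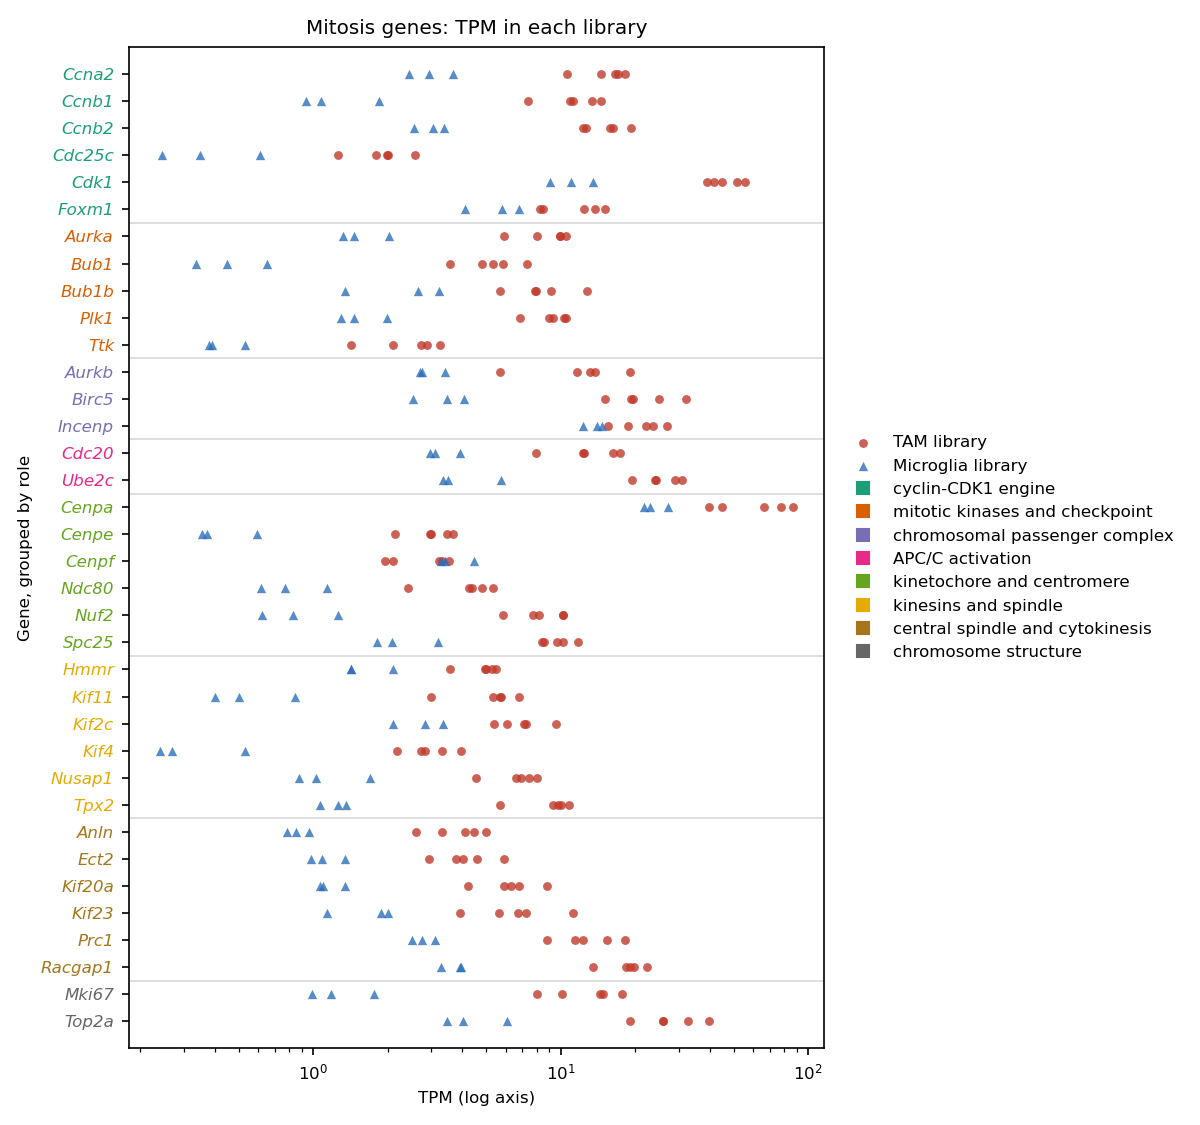
TPM on a log axis (x) of each of the 36 mitosis genes (y, coloured and grouped by role) in every library, with circles for the 5 TAM libraries and triangles for the 3 microglia libraries. The circles lie to the right of the triangles for 35 genes, and only those of Cenpf are mixed with the triangles.

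Genes of this set are textbook targets of a promoter arrangement in which the trimeric factor NF-Y binds CCAAT boxes and the MuvB complex binds a cell cycle genes homology region (CHR) close to the start. Because 35 members moved together, the RefSeq promoter windows were searched for these letters. Each window ran from 250 bases before to 50 bases after the annotated start on GRCm38.p6. The searched letters were CCAAT and TTTGAA on both strands, and TTCGAA, which reads the same on both. Windows were found for 29 of the 36 genes, and those of Aurkb, Ccna2, Cdc25c, Foxm1, Incenp, Kif20a and Tpx2 were not used here. In 22 of the 31 windows of these 29 genes, bases just after the start occurred in a GENCODE transcript of the gene. The starts of the remaining windows, and distances from them, are less certain. The 4 genes with the most matches (Ccnb2 was tied with Cdk1, Ect2 and Mki67 and taken by symbol), and Cenpf, which was picked after its values were seen, are shown from 150 bases before to 20 bases from the start. Each is written 5′ to 3′ on the strand of its gene with the matches in capitals (CCAAT reads ATTGG, and TTTGAA reads TTCAAA, where the match is on the other strand). The windows are chr11:99024170-99024339 for Top2a, chr2:164769779-164769948 for Ube2c, chr11:40733418-40733587 for Hmmr, chr9:70421535-70421704 for Ccnb2 and chr1:189688067-189688236 for Cenpf. Ube2c lies on the plus strand and the others on the minus strand.
Top2a: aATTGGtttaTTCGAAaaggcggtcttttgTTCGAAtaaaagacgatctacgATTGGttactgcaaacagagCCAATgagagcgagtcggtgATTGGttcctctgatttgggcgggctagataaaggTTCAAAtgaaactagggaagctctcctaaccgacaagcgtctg
Ube2c: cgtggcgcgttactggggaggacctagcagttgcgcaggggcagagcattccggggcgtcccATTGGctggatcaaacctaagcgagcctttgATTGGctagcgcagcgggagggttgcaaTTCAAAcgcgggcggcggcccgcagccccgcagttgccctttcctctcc
Hmmr: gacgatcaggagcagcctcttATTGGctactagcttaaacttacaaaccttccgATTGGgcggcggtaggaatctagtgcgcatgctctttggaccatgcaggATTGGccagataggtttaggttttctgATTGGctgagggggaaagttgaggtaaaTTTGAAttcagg
Ccnb2: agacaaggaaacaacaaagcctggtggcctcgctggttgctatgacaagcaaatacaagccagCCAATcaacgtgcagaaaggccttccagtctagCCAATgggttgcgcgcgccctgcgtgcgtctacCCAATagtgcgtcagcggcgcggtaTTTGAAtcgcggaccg
Cenpf: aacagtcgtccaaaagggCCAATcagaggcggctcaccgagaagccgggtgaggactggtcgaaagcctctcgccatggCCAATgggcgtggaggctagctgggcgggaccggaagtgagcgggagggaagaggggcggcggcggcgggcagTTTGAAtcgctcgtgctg

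CCAAT stood in the windows of 23 of 29 members (79.3%), against 41.1% of the 27025 genes with a window. At least 2 copies stood in 55.2% of the members and 13.3% of all genes. TTTGAA was also found in 23 members (79.3%), against 20.2% of all genes, and TTCGAA in 3 members (10.3%), against 1.80%. Windows with CCAAT and either of the other motifs made up 72.4% of the members and 8.61% of all genes. In 21 members (72.4%) a TTTGAA began within 50 bases of the start, a distance chosen after the positions were seen, against 5.72% of all genes. Among 118 further mitotic genes with a window the shares lay between these, at 56.8% for CCAAT, 42.4% for TTTGAA, 33.1% for CCAAT with either other motif and 31.4% for TTTGAA near the start. The windows of Birc5, Nuf2 and Nusap1 held none of the 3 motifs. Their transcripts were higher in TAMs, with log2 fold changes of 2.39, 2.30 and 1.81. The window of Cenpf held 2 CCAAT and 1 TTTGAA, as did those of Aurka, Cdc20, Cenpa, Kif4, Spc25 and Ttk, which were all higher. These shares describe letters in a window. Binding was not measured, and any part of the motifs in the difference between the groups was not tested.

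**Figure D2:**
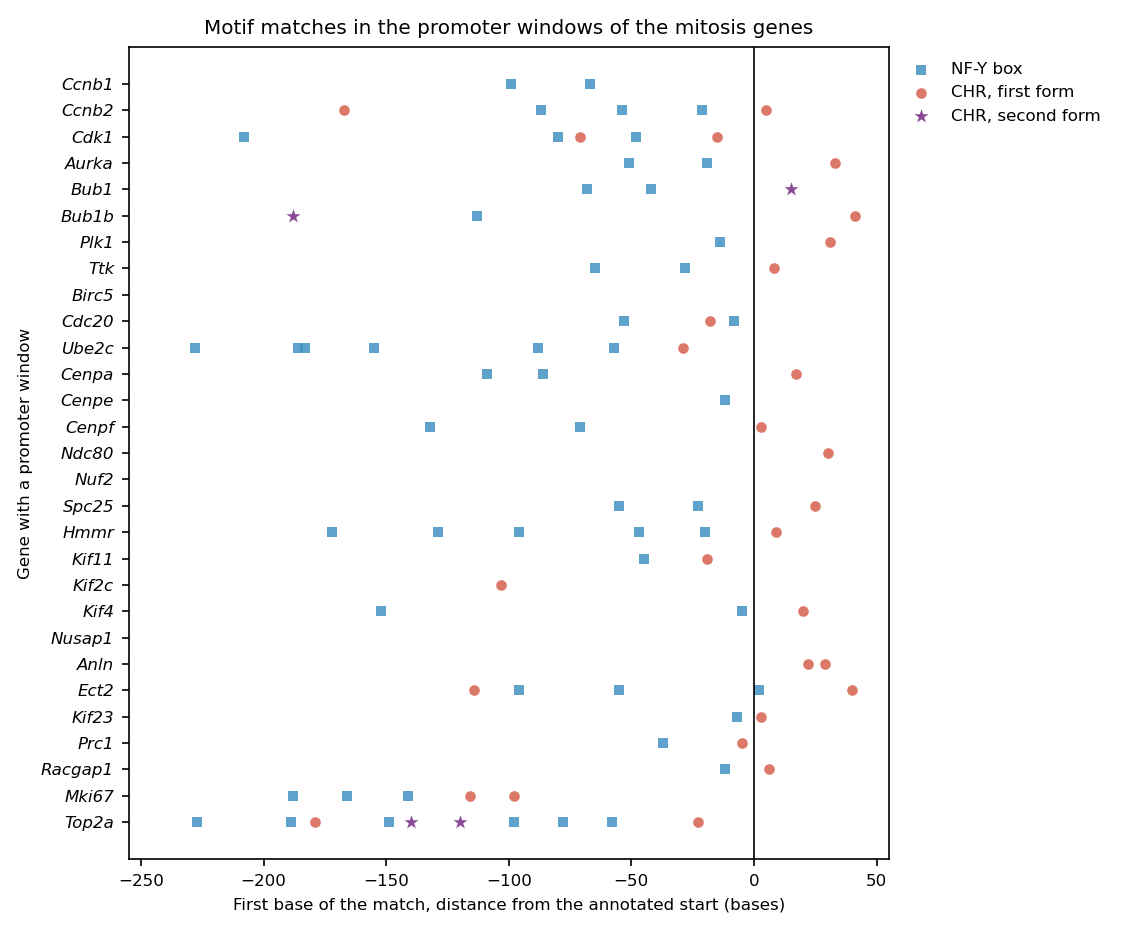
Distance in bases from the annotated start (x) of the first base of each motif match, for the 29 mitosis genes with a RefSeq promoter window (y; for Ect2 and Prc1, which have a pair of windows, one is drawn). Squares are NF-Y boxes, circles and stars are the first and second form of the CHR, and 3 genes have no match.

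The cyclin-CDK1 engine, which starts mitosis, rose as a whole (6 of 6 genes, median log2 fold change 1.99). Cdk1, the kinase itself, read 39.0, 51.7, 55.4, 41.6 and 44.7 TPM in TAM 1 to TAM 5 and 9.04, 13.5 and 11.0 TPM in the microglia libraries. Its groups were far apart, and its limma adjusted p of 7.01e-05 was the lowest of the set (log2 fold change 1.97, SE 0.16). Ccnb1, cyclin B1, read 10.8, 13.4, 14.6, 7.35 and 11.2 TPM against 1.07, 1.84 and 0.935 TPM, a log2 fold change of 2.44 (SE 0.24, adjusted p = 0.000143). Ccnb2 and Ccna2, cyclins B2 and A2, had means of 15.2 ± 2.86 and 15.4 ± 2.97 TPM in TAMs (SD, n = 5) and of 2.99 ± 0.419 and 3.01 ± 0.626 TPM in microglia (SD, n = 3). The cyclin B1 transcript was a larger share of the Cdk1 level in TAMs, at 0.177 to 0.278 per library, than in microglia, at 0.085 to 0.136, a ratio that no scaling of a library changes and that was looked at after the values were seen, so it was not tested. Cdc25c, a phosphatase that activates CDK1, was the lowest member in TAMs, at 1.25 to 2.58 TPM in TAMs and 0.244 to 0.611 TPM in microglia. Foxm1, a transcription factor for G2 and M genes, had the smallest change of this role. It read 8.50, 13.8, 12.4, 8.22 and 15.1 TPM in TAMs and 4.09, 5.81 and 6.78 TPM in microglia, so the groups did not overlap but TAM 4 and TAM 1 lay close to the highest microglia library (log2 fold change 0.93, SE 0.24, adjusted p = 0.0104).

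All 5 mitotic kinases and checkpoint genes rose. Bub1, a checkpoint kinase at the kinetochore, had the highest ratio of the set. It read 5.31, 5.86, 7.30, 3.58 and 4.81 TPM in TAMs and 0.337, 0.447 and 0.649 TPM in microglia, where every library was under 1 TPM. Its log2 fold change was 2.09 (SE 0.22, limma adjusted p = 0.000186). Bub1b, which encodes the checkpoint protein BUBR1, spread more, from 5.69 to 12.8 TPM in TAMs and from 1.34 to 3.21 TPM in microglia. Plk1, the polo kinase of mitotic entry, and Aurka, the Aurora kinase of spindle poles, had close values, with means of 9.19 ± 1.46 and 8.84 ± 1.91 TPM in TAMs (SD, n = 5) and 1.58 ± 0.357 and 1.60 ± 0.375 TPM in microglia (SD, n = 3). Ttk, the kinase MPS1 that starts checkpoint signalling, was low in both groups, at 1.42 to 3.24 TPM and 0.380 to 0.532 TPM.

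The chromosomal passenger complex corrects wrong attachments, and its 3 members here had log2 fold changes from 0.59 to 2.39. Birc5, survivin, which brings the complex to chromatin, read 19.2, 32.0, 24.9, 15.1 and 19.5 TPM in TAMs and 2.52, 4.06 and 3.46 TPM in microglia. That is a ratio of means of 6.62 (log2 fold change 2.39, SE 0.24, limma adjusted p = 0.000168). Aurkb, its kinase, ranged from 5.67 TPM in TAM 4 to 19.1 TPM in TAM 2, beside 2.71 to 3.40 TPM in microglia, and had the widest error of the set (log2 fold change 1.71, SE 0.32). Incenp, the scaffold that binds both, was the most abundant of the 3 in microglia. It read 18.6, 26.8, 23.6, 15.5 and 22.2 TPM in TAMs and 12.3, 14.1 and 14.6 TPM in microglia, which leaves TAM 4 just above the highest microglia library. The log2 fold change of Incenp was 0.59 (SE 0.18, adjusted p = 0.0193), the smallest among the 35, and the adjusted p became 0.0611 without microglia 1, 0.0507 without microglia 2 and 0.0707 with age as a covariate. On rescaled TPM its change was 1.29 (adjusted p = 0.00078). Within a library, the Incenp level was 1.41 to 2.73 times the Aurkb level in TAMs and 3.62 to 5.40 times in microglia.

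Both members that activate the APC/C rose. Ube2c, the ubiquitin-conjugating enzyme of the complex, read 24.0, 30.8, 29.0, 19.5 and 24.3 TPM in TAMs and 3.35, 5.72 and 3.51 TPM in microglia. The lowest TAM library stood well above the highest microglia library (log2 fold change 2.36, SE 0.20, limma adjusted p = 8.16e-05). Cdc20, the activator that the checkpoint holds back, averaged 13.3 ± 3.74 TPM in TAMs (SD, n = 5) and 3.33 ± 0.510 TPM in microglia (SD, n = 3).

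Of the 6 kinetochore and centromere genes 5 rose. Cenpa, the histone H3 variant that marks centromeres, was the most abundant member in both groups. It read 39.6, 77.5, 66.4, 44.9 and 86.4 TPM in TAMs and 23.0, 27.1 and 21.6 TPM in microglia, a ratio of means of 2.64 (log2 fold change 1.31, SE 0.26, limma adjusted p = 0.00295). Nuf2, Ndc80 and Spc25 encode subunits of the NDC80 complex, the microtubule grip of the kinetochore. Nuf2 changed most, with 5.82 to 10.2 TPM in TAMs and 0.621 to 1.26 TPM in microglia (ratio of means 9.32). Ndc80 and Spc25 had ratios of 5.06 and 4.11. Cenpe, a kinesin that carries chromosomes to the spindle equator, read 2.14 to 3.69 TPM in TAMs and 0.354 to 0.590 TPM in microglia.

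Cenpf, a large protein of the kinetochore corona and nuclear envelope, was the member without a call. The gene (chr1:189640606-189688086, GENCODE M21 on GRCm38) read 1.94, 2.10, 3.53, 3.23 and 3.31 TPM in TAM 1 to TAM 5 and 3.28, 3.40 and 4.48 TPM in the microglia libraries. The groups overlapped, and TAM 1 and TAM 2 were the lowest. The log2 fold change was -0.32 (SE 0.21, limma adjusted p = 0.212). On rescaled TPM it was 0.25 (SE 0.19, adjusted p = 0.307), and in the authors' deposited table it was 0.42 (adjusted p = 0.225), so the sign depended on the scale and no fit called it. Set against Cenpe in the same library, the Cenpf level was 0.657 to 1.51 times as high in TAMs and 5.76 to 12.7 times as high in microglia. That ratio is free of library scaling. Cenpf was singled out after its values were seen, so the ratio was not tested.

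**Figure D3:**
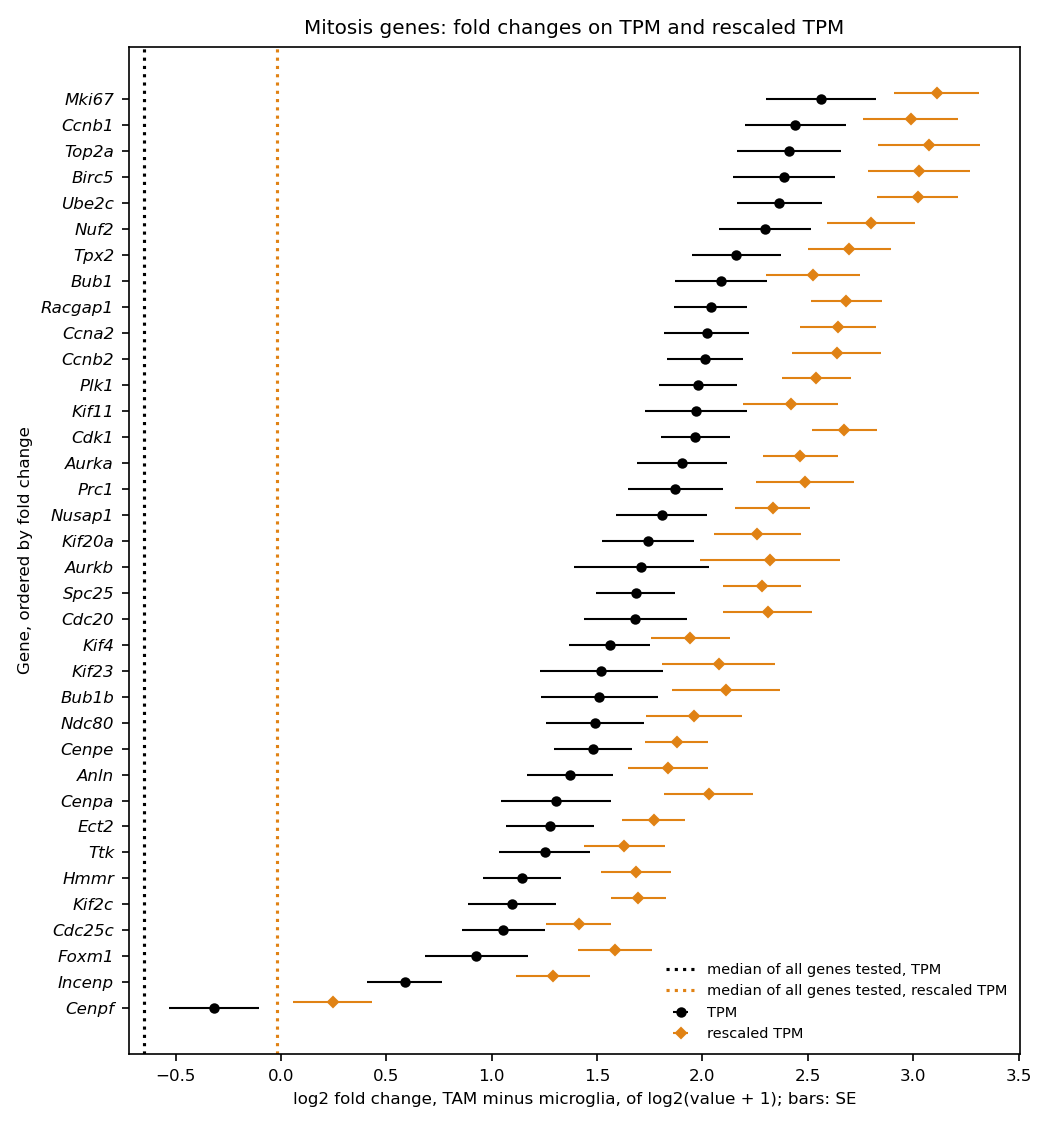
Log2 fold change (x, TAM minus microglia, with SE bars) of each mitosis gene (y, ordered by the change on TPM), with black circles for TPM, orange diamonds for rescaled TPM and dotted lines at the median of all genes tested on each scale. Rescaling moved the set from a median of 1.73 to 2.31, and Cenpf is the gene nearest to the dotted lines.

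The 6 kinesin and spindle genes all rose. Tpx2, which activates Aurora A on microtubules, read 9.30, 10.8, 10.1, 5.70 and 9.76 TPM in TAMs and 1.06, 1.26 and 1.36 TPM in microglia, with a log2 fold change of 2.16 (SE 0.21, limma adjusted p = 0.000143). Kif11, the motor that pushes spindle poles apart, and Kif4, a chromosome-bound kinesin, stayed under 1 TPM in all microglia libraries and averaged 5.30 ± 1.40 and 3.00 ± 0.661 TPM in TAMs (SD, n = 5). Nusap1, a spindle microtubule bundler, had a ratio of 5.58. Kif2c, a kinesin that takes microtubules apart at centromeres, and Hmmr, a spindle-associated hyaluronan receptor, changed least, with ratios of 2.57 and 2.95.

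Central spindle and cytokinesis genes, which separate the daughter cells, also rose in full (6 of 6). Racgap1, a subunit of centralspindlin, read 18.4, 19.8, 22.2, 13.5 and 19.1 TPM in TAMs and 3.29, 3.93 and 3.96 TPM in microglia, with a log2 fold change of 2.04 (SE 0.17, limma adjusted p = 7.6e-05). Its partner Kif23 had a lower level and a wider spread, from 3.92 TPM in TAM 4 to 11.2 TPM in TAM 2, beside 1.14 to 2.01 TPM in microglia. Prc1, which crosslinks the central spindle, and Kif20a, a kinesin that moves passenger proteins to it, had ratios of 4.73 and 5.47. Anln, the actin-binding anillin of the contractile ring, and Ect2, the exchange factor that activates RhoA there, had ratios of 4.51 and 3.74.

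The pair grouped under chromosome structure had the largest median change (2.49). Mki67, the Ki-67 protein that coats mitotic chromosomes and is the usual stain for dividing cells, read 10.1, 14.8, 14.4, 7.98 and 17.6 TPM in TAMs and 1.18, 1.76 and 0.989 TPM in microglia. Its log2 fold change, 2.56 (SE 0.26, limma adjusted p = 0.000173), was the largest of the set, and its ratio of means was 9.91. Top2a, the topoisomerase that untangles sister chromatids, read 25.9, 39.5, 32.6, 19.0 and 25.9 TPM in TAMs and 3.47, 6.06 and 4.03 TPM in microglia, with a log2 fold change of 2.41 (SE 0.25, adjusted p = 0.000176). For 7 genes (Cdc25c, Ttk, Bub1, Cenpe, Kif11, Kif4 and Anln) no microglia library reached 1 TPM, so they entered the test through the TAM libraries alone. Tested without a filter on low values, the count of higher members was again 35, beside 1215 of all genes.

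The TAM libraries differed among themselves in most of these genes at once. TAM 4 was the lowest TAM library for 33 of the 36 genes and TAM 2, from the oldest mouse, was the highest for 19. The median ratio of TAM 2 to TAM 4 over the members was 1.74. On rescaled TPM TAM 4 was lowest for 28 and TAM 2 highest for 23, with summed levels of 577, 749, 677, 446 and 505 in TAM 1 to TAM 5. The microglia sums on that scale were 93.6, 90.9 and 82.9, and microglia 2, the highest library for 27 genes on TPM, was the highest for 20. With TAM 4 left out, 35 members were again called higher, as they were with any other TAM library left out. No test of age within the TAMs was made, with 1 library per age.

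**Figure D4:**
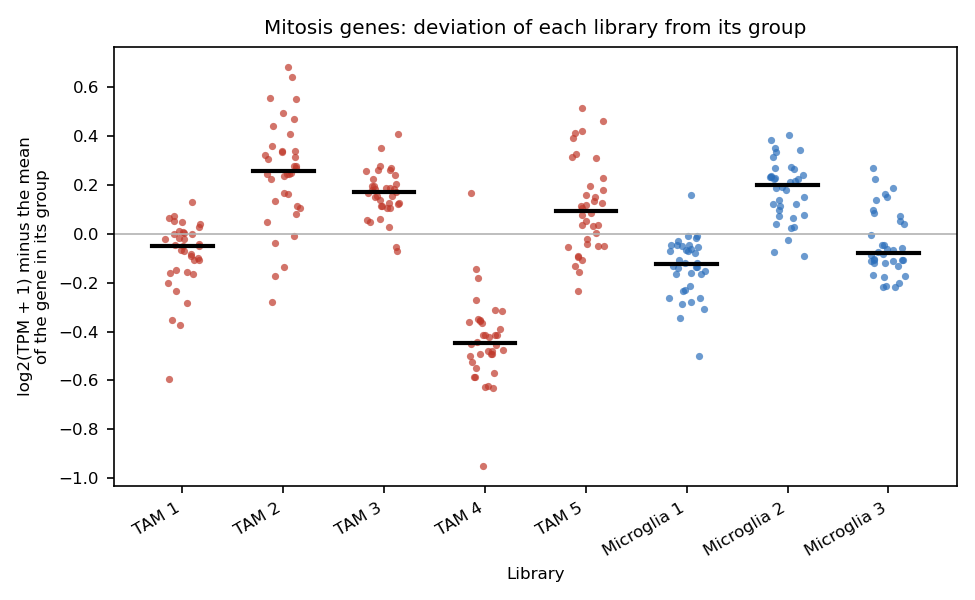
Deviation of log2(TPM + 1) (y) of each mitosis gene from its mean over its own group, in each library (x), with black bars at the median over the 36 genes. The median is -0.45 in TAM 4 and 0.26 in TAM 2, and it is 0.20 in microglia 2.

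The rest of the mitotic machinery was followed through 139 further genes, of which 137 were tested. On TPM 60 were higher and 39 lower, where 8.22% of all genes tested were higher and 56.4% lower. On rescaled TPM 94 were higher and 4 lower, where 25.2% of all genes were higher and 24.1% lower, so the balance of this list depended on the scale while that of the 36 did not. The median log2 fold change was 0.33 on TPM and 0.95 rescaled. For 27 of the 137 no microglia library reached 1 TPM, so they too entered the test through the TAM libraries alone. With no filter 54 further genes were higher and 39 lower, where 1215 of all genes were higher and 11078 lower. Of the further kinesin and spindle genes 16 of 19 tested were higher on TPM and 17 rescaled, and 9 of the 19 had entered through the TAM libraries alone. Among them Cep55, which recruits the abscission machinery, read 4.59 to 7.73 TPM in TAMs and 0.418 to 0.857 TPM in microglia. Numa1, which anchors dynein at spindle poles, was lower on both scales, with means of 41.8 TPM in TAMs and 103 TPM in microglia (rescaled log2 fold change -0.55, limma adjusted p = 0.00105).

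Further cyclin-CDK regulators rose in 7 of 12 cases on TPM and 11 of 12 rescaled. For this and the following lists, 8.22% of all genes tested were higher on TPM and 25.2% rescaled. Pbk, a mitotic kinase, read 12.4, 8.68, 13.2, 9.94 and 11.1 TPM in TAMs and 1.69, 1.23 and 0.806 TPM in microglia, with a log2 fold change of 2.43 (limma adjusted p = 6.69e-05). Unlike the members, Pbk was at its lowest TAM level in TAM 2. Further kinetochore genes were higher in 15 of 31 cases on TPM and 26 rescaled, with Cenpm, Cenpn and Pmf1 at the lowest p. Further checkpoint and passenger genes were higher in 6 of 9 cases and 9 of 9 rescaled, among them Cdca8, the borealin subunit of the passenger complex (10.5 to 18.6 TPM against 2.08 to 3.22 TPM). Further cytokinesis genes were higher in 5 of 8 cases and 6 rescaled.

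Core subunits of the APC/C and its inhibitors lay near the course of all genes on TPM. Of 17 tested, 1 was higher and 11 lower, beside 8.22% and 56.4% of all genes, and on rescaled TPM 7 were higher and 1 lower, with a median of 0.19. Anapc4, a scaffold subunit, was lower on both scales, with 19.5 to 32.2 TPM in TAMs and 41.0 to 64.2 TPM in microglia. Of 19 condensin, cohesin and separase genes 7 were higher and 10 lower on TPM, and 8 were higher and 2 lower rescaled. The 10 lower on TPM were a share close to the 56.4% of all genes. On rescaled TPM 25.2% of all genes were higher and 24.1% lower. Ncapg, a condensin subunit, and Cdca5, the cohesion factor sororin, rose from means of 0.458 and 0.819 TPM in microglia to 4.30 and 5.40 TPM in TAMs. The cohesin subunit Stag2 and the cohesin regulator Pds5b were the 2 that were lower on both scales, with rescaled log2 fold changes of -0.43 and -0.62 (limma adjusted p = 0.0194 and 0.00435).

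MuvB, E2F and NF-Y genes encode factors known for regulating cell cycle promoters. Of these 22 regulators 3 were higher and 13 lower on TPM, the latter a share close to the 56.4% of all genes, and 10 were higher and 0 lower by limma on rescaled TPM. Of all genes tested, 8.22% were higher on TPM, and 25.2% were higher and 24.1% lower rescaled. Those higher on both scales were E2f1, E2f8 and Mybl2, an activator and a repressor of the E2F family and the MuvB partner B-MYB. Mybl2 read 2.68, 5.59, 4.97, 2.77 and 6.28 TPM in TAMs and 1.42, 2.98 and 1.86 TPM in microglia, so its groups overlapped (log2 fold change 0.80, limma adjusted p = 0.0431). The NF-Y subunit genes Nfya, Nfyb and Nfyc had log2 fold changes of -0.77, -1.04 and -0.77 on TPM, beside the median of -0.65 over all genes, and were not called on rescaled TPM (-0.03, -0.35 and -0.04). S phase genes, which copy the DNA before mitosis, were higher in 24 of 37 cases on TPM and 35 rescaled, beside 8.22% and 25.2% of all genes. None was lower by limma on either scale, and 3 of the 37 had entered the test through the TAM libraries alone. The median change of the S phase genes was 0.74 on TPM and 1.38 rescaled, below that of the 36 mitosis genes on each scale. Rrm2, a subunit of ribonucleotide reductase, rose most clearly, from a mean of 2.08 TPM in microglia to 17.4 TPM in TAMs.

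**Figure D5:**
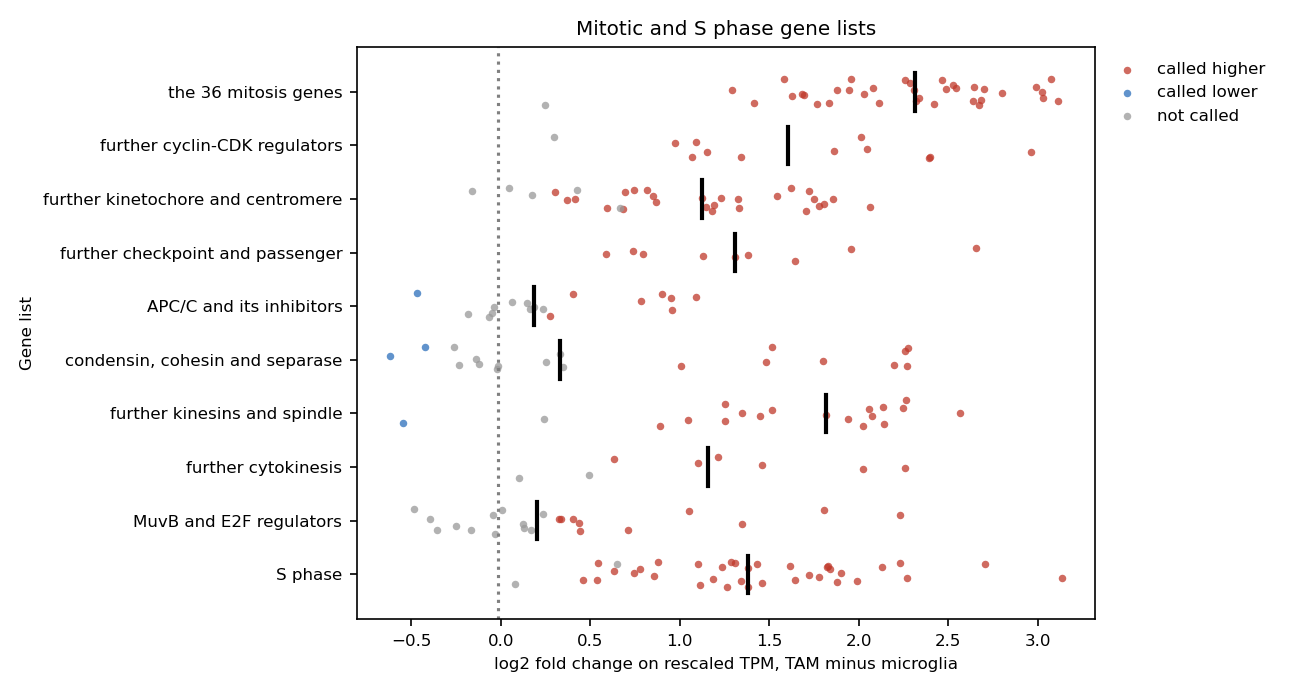
Log2 fold change on rescaled TPM (x) of each tested gene of the 36 mitosis genes, the further mitotic lists and the S phase list (y), coloured by the limma call, with black bars at each list's median and a dotted line at the median of all genes tested. The mitosis genes have the highest median (2.31), and the APC/C, cohesin and MuvB lists lie closest to the dotted line.

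Markers of other cells were read beside these results. The microglia and macrophage list includes Itgam (the gene of CD11b) and Csf1r, and 12 of 12 genes were above 0 in every library. It summed to 12315 to 24381 TPM in TAMs and 22114 to 27046 TPM in microglia. TAM 2 had the lowest sum of this list, and a mean log2(TPM + 1) of 8.26 beside 9.15 to 9.46 in the other TAM libraries. Of these 12, 2 were higher and 6 lower in TAMs on TPM, and 4 were higher and 5 lower rescaled. All marker counts stand beside 8.22% of all genes tested higher and 56.4% lower on TPM. On rescaled TPM these shares were 25.2% and 24.1%. The list for the granule lineage and medulloblastoma also holds neuron genes (Dcx, Stmn2, Tubb3 and Neurod2), so its sum is not a level of dividing cells. This list summed to 12.1 to 114 TPM in TAMs and 26.3 to 97.6 TPM in microglia. Of its 14 tested genes 5 were higher and 3 lower in TAMs, and 5 of the 14 had entered the test through the TAM libraries alone. Its defining marker Atoh1 read 1.06, 0.238, 1.33, 1.03 and 6.27 TPM in TAM 1 to TAM 5 and 0 in all microglia libraries. Among the TAM libraries the sum of this list was lowest in TAM 2 (12.1 TPM) and highest in TAM 5 (114 TPM). The monocyte list summed to 39.4 to 203 TPM in TAMs and 16.8 to 27.4 TPM in microglia, with 4 of 6 genes higher. For 2 of these 6 no microglia library reached 1 TPM. The neutrophil list summed to 240 to 637 TPM, highest in TAM 2, against 414 to 464 TPM. Those sums overlapped, but 4 of its 7 tested genes were higher and 1 lower, and its mean log2(TPM + 1) was 2.47 to 3.74 in TAMs and 2.00 to 2.20 in microglia. The B and plasma cell list summed to 54.1 to 643 TPM against 9.15 to 19.3 TPM. T and NK cell markers were low in both groups (3.36 to 6.60 and 5.23 to 11.7 TPM), and endothelial markers were higher in the microglia libraries (580 to 1851 TPM against 16.2 to 89.4 TPM). The sums of mural (271 to 765 against 5.79 to 21.3 TPM), astrocyte (103 to 651 against 14.7 to 76.7 TPM) and oligodendrocyte markers (145 to 755 against 45.4 to 56.8 TPM) were also higher in the microglia libraries. The part of these cells in the mitotic levels was not tested.

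Some members share sequence with other annotated features. A search of GENCODE M21 transcripts found 15 pseudogene copies of 9 members (at least 90% identity over at least 400 bases), 8 of them in the table. Of these, 6 stayed under 0.1 TPM in every library, and the highest level was 4.65 TPM, for a copy of Ndc80. A copy of Plk1 read 0.155 to 1.18 TPM, beside 1.30 to 1.98 TPM for Plk1 in microglia. The levels of Ndc80 and Plk1 are therefore uncertain. With copies summed, 35 members were again higher, and the log2 fold changes became 1.08 for Ndc80 and 1.60 for Plk1. Gm1976, which resembles Ndc80 but is not annotated as a pseudogene, read 1.34 to 5.71 TPM and was not summed. A protein-coding gene overlaps 8 members (Ccna2, Cdc20, Cdc25c, Foxm1, Kif20a, Kif4, Nusap1 and Ube2c), and whether the reads were counted by strand is not given in the sources used here. A transcript of the coding gene Rccd1 (4.08 to 24.9 TPM) also matched Prc1 at 100% identity over 670 bases. By position, 7 of the 36 genes lie on chromosome 2 (19.4%, beside 8.45% of all genes tested).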

How the data were processed

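RNA of 5 TAM and 3 microglia libraries was read from 1 table of TPM per gene and library, which the authors made from their reads, per the file headers. The deposited table also holds the authors' DESeq2 mean signal per gene, log2 fold change and unadjusted p-value. Per the submitters' processing notes, the authors used FastQC, DESeq2 and the build mm10. Which aligner and quantifier made the values, and whether strand was used, is not given in the sources used here. Groups came from the sample titles. Libraries summed to between 990422 and 997832 TPM, and TPM keeps no depth, so the counting error of each value is unknown. A further 3 value columns name no sample and were left out.

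The 15262 genes that reached 1 TPM in 3 or more libraries were fitted with limma 3.58.1 (intensity trend, R 4.3.3) on log2(TPM + 1), all 8 libraries in 1 fit with no covariate, and p-values were adjusted by Benjamini-Hochberg over all of them at 0.05. The same fit was made on rescaled TPM, with other filters and pseudocounts, age or replicate number as a term, coding genes alone, copies summed (blastn 2.17.0) and each library left out. The fits on coding genes, on summed copies and on rescaled TPM without each library were added after seeing the data. The fit was tested on simulated data. Ratios divide the group means of TPM. All members were named, and from each further list up to 3 genes of lowest p per direction were considered; Atoh1, Itgam and Csf1r are list markers. Members and lists were chosen with earlier results of these data known. Gene coordinates are from GENCODE M21, and promoter windows from RefSeq on GRCm38.p6.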

Additional observations from a re-analysis of the deposited data

Results flagged for a closer look

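One of the 37 groups of TAM values examined held a library far from the others. For Hmmr, TAM 4 read 3.57 TPM while the other TAM libraries lay between 4.96 and 5.45 TPM, and the gap was 0.739 of the whole range, above the 95% critical value of 0.71 for 5 samples. Chance alone marks about 5% of such groups. TAM 4 was the lowest TAM library for 33 of the 36 mitosis genes, and without it 35 of them were called higher by limma.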

How the results depend on the processing

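The count of 35 members higher by limma held on rescaled TPM, without the 3 abundant features, with no filter, with a pseudocount of 0.1, among coding genes alone, with copies summed and with the replicate number as a block. It was 34 with age as a covariate, where Incenp was lost, and 28 of 28 tested at a filter of 5 TPM. Leaving out 1 library gave 34 to 35 on TPM (Incenp was lost without microglia 1 or microglia 2, with log2 fold changes of 0.52 and 0.61, and with age, 0.48) and 35 in every case on rescaled TPM. No member was lower under any of these settings. The median of the set was 2.31 on rescaled TPM, 2.25 with the smaller pseudocount, 1.95 among coding genes and 3.15 in the authors' deposited table, and 1.65 to 1.89 with 1 library left out. Cenpf changed sign to 0.25 on rescaled TPM and 0.42 in the authors' deposited table, called in neither.

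Rescaling changed the balance of all genes from 1254 higher and 8610 lower to 3841 and 3677, and the authors' deposited table gave 4763 and 4324. Further mitotic genes went from 60 higher and 39 lower to 94 and 4 on rescaled TPM, to 102 and 4 in the authors' deposited table, and to 25 higher at the 5 TPM filter, where fewer genes were tested. With 1 library left out, all genes higher ran from 918 to 1315, all genes lower from 6461 to 9393, further genes higher from 52 to 62 and lower from 28 to 48. Libraries with the same replicate number deviated with correlations of 0.15, 0.0139 and -0.0507, and the block left 35 members higher. Deviations from the means of such small groups cannot show whether a shared number means a shared animal or batch. The labels do not say. The cause of each shift was not tested.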
